A study of Mus musculus with 6 samples.

Results

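Malat1, Neat1 and the small nucleolar RNA (snoRNA) host genes Gas5, Snhg1, Snhg3, Snhg8 and Snhg12 were followed across sorted mouse melanoma cells. They were taken by mouse symbol, and the set was selected on the wide difference in the share of counts taken by Malat1 between the libraries of suffix 18-8-14. Of the 7 genes named, 5 matched a row among the 18324 gene rows of the count table, and all 5 passed the filter on low counts that left 11324 genes. Snhg1 and Snhg8 matched no row, also not by RefSeq synonyms, and were not analysed here.

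The cells were B16-F10, a mouse melanoma line kept in culture, with no agent or genetic change named in the labels. Flow cytometry separated them by the scatter of light on melanin into high-pigmented cells (HPC) and low-pigmented cells (LPC), and each population has 3 libraries. Each title ends in a suffix, 16-9-15, 18-8-14 or 1-9-14, common to 1 library of each population, whose meaning is not stated. All libraries come from 1 cell line, and the labels do not name separate cultures, so the p-values measure the spread between these libraries, which may be technical. The tests also share information on that spread across genes.

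Malat1 is an abundant long noncoding RNA of nuclear speckles, the nuclear bodies that hold splicing factors. Neat1 is the architectural RNA of paraspeckles, nuclear bodies that assemble along its long form together with RNA-binding proteins such as SFPQ and NONO. The other genes are transcribed mainly to carry snoRNAs in their introns. The snoRNAs are released during splicing and guide chemical modification of ribosomal and other RNAs, while the spliced exons are exported and, in Gas5, degraded by nonsense-mediated decay as they are translated. Gas5 belongs with many ribosomal protein genes to the transcripts whose start carries a terminal oligopyrimidine tract, a run of C and T that ties their translation and turnover to growth signalling.

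These libraries are primed with oligo(dT), mostly at poly(A) tails, so the counts depend on where a transcript offers such a site and do not scale with its length. The last 60 bases of 1 annotated transcript of each gene with a row are shown 5′ to 3′ for that reason, from GENCODE vM21 on GRCm38, with the polyadenylation signal AATAAA or ATTAAA in capitals where it occurs.

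Malat1-201: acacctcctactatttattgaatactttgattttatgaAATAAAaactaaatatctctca
Neat1-202, the short form: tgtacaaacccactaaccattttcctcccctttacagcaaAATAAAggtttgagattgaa
Neat1-201, the long form: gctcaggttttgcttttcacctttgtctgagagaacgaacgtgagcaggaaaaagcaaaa
Gas5-203: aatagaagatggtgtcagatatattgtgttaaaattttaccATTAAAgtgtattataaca
Snhg3-202: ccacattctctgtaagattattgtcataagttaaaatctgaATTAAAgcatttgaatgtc
Snhg12-210: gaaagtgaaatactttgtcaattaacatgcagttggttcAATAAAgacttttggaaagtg

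One of the 2 signals occurred in the last 60 bases of 36.1% of 134529 annotated transcripts of the mouse genome. It was found in these 60 bases for Malat1, Gas5, Snhg3, Snhg12 and the short form of Neat1, and not for the long form of Neat1. The long form of Neat1 is known to end in a structure cut by RNase P and not in a poly(A) tail, as is the main form of Malat1. The Malat1-201 transcript holds a run of 12 A that starts at base 6674, 310 bases from its annotated end. The run is shown in capitals within bases 6649 to 6721 because oligo(dT) can prime on such a run. How it lies to the end cut by RNase P is not given in this annotation.

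Malat1-201, internal A run: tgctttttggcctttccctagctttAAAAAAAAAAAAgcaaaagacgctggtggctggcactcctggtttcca

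A run of at least 12 A occurred in 4.28% of the annotated transcripts, Snhg12-210 among them. Which of these ends gave rise to the counts was not tested, because the counts are summed per gene.

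The start of Gas5 is shown for the pyrimidine run that names its transcript class, with 30 bases before the start site and 30 from it on, from RefSeq on GRCm38.p6. The capitals mark the C and T bases from the start site on.

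Gas5, start at chr1:161035166, window chr1:161035136-161035195, plus strand: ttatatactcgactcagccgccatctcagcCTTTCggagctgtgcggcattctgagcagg
Snhg12, start at chr4:132308678, window chr4:132308648-132308707, plus strand: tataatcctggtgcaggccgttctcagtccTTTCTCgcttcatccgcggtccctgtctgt

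The Gas5 start has a C followed by 4 more pyrimidines, an arrangement present at 2.51% of 32851 RefSeq starts. Gas5 has a further RefSeq start without such a run. Snhg12 has 6 pyrimidines from its start but begins with T. The RefSeq start of Snhg3, not shown, begins with G and has no such run.

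In GENCODE vM21 on GRCm38, Malat1 spans chr19:5795690-5802672 and Neat1 spans chr19:5824708-5845478, both on the minus strand and 22036 bp apart. Neat1 is annotated with 4 transcripts of 711 to 20771 bases, so its row joins forms with different ends. Gas5 lies at chr1:161034422-161038539 on the plus strand and encloses 9 annotated snoRNAs. Snhg12 lies at chr4:132308623-132311024 on the plus strand with 4 different snoRNAs, Snora16a, Snora44, Snora61 and Snord99. Snhg3 lies 36990 bp from it at chr4:132348014-132353686 on the minus strand and encloses Snora73a and Snora73b. Exons of Snhg3 share 135 bases with Rcc1 on the same strand and 705 bases with Gm17300 on the opposite strand. Malat1 shares 453 exon bases with Gm37376 on the opposite strand and stretches of at least 100 bases at 95% identity with 191 genes, and Neat1 shares such stretches with 7. How the authors' counting treated shared reads and strand is not given in the sources used here, so these rows are uncertain to that extent.

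Counts on genes ranged from 3819605 to 7311131 per library. The pair of suffix 18-8-14 stood apart from the others. Its libraries gave 66.1% (HPC) and 34.8% (LPC) of gene counts to 3 rows, RP23-81C12.3 and the mitochondrial ribosomal RNA genes, against 5.05% to 6.995% in the other 4 libraries, and had 10620 and 12778 genes with a count against 14130 to 15002. Results are therefore given with and without that pair. All 7 melanocytic markers (Dct, Tyrp1, Tyr, Pmel, Mlana, Sox10 and Mitf) had counts in every library, with a summed level of 4443 to 20730 normalised CPM (counts scaled to library size by the trimmed mean of M-values, TMM) in HPC and 6189 to 17280 in LPC libraries. That sum is mostly Dct. In 18-8-14, against the direction of the sort labels, 6 of the 7 markers were lower in the HPC than in the LPC library, with a median log2 difference (high minus low) of −0.58 against 0.16 in 16-9-15 and 0.41 in 1-9-14. The exception was Mlana at 0.60, and Tyr, the enzyme that starts melanin synthesis, had 2 counts in the HPC and 20 in the LPC library of that pair. Tyr was also low in the LPC library of 1-9-14, at 3.78 CPM against 5.72 in the LPC library of 18-8-14. In 16-9-15, 2 of the 7 markers were lower in HPC (Tyrp1 at −0.01 and Tyr at −0.04), and in 1-9-14 0 were. The levels of Tyrp1 and Pmel were 131.5 and 148.4 CPM in the HPC library of 18-8-14 and 251.9 and 221.6 in its LPC library, against at least 1389 and 1344 in the other 4. In sorted populations fewer cells with a transcript and less of it per cell cannot be told apart.

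Malat1 was among the rows with the most counts in every library, and its level covered a wider range over the libraries than those of the snoRNA hosts. It took 0.880% of gene counts in the HPC library of 16-9-15, 0.252% in that of 18-8-14 and 1.34% in that of 1-9-14. In the LPC libraries the shares were 0.407%, 6.77% and 0.853% in the same order. By share of all gene counts the LPC library of 18-8-14 was thus the high extreme and the HPC library of the same suffix the low extreme. Its Wilson 95% interval was 6.75% to 6.79%, against 0.247% to 0.257% in the HPC library, which covers counting error only. Malat1 was the row with rank 2 in that LPC library and rank 14 in its HPC partner, and ranked from 3 to 9 in the other libraries.

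The size of the 18-8-14 difference depended on what it was measured against. Over all gene counts the Malat1 share was 26.9-fold higher in the LPC library. Without the 3 dominant rows the shares were 0.742% and 10.4%, a 14.0-fold difference. These values chose the genes described here and are given without a test. In TMM-normalised CPM Malat1 stood at 6704, 5591 and 10250 in HPC libraries of 16-9-15, 18-8-14 and 1-9-14, and at 3064, 92530 and 6542 in LPC libraries. The highest Malat1 value was 30.2 times the lowest, and of the 1405 genes with a mean of at least 100 CPM, 23 had a wider range. The lowest value in CPM was in the LPC library of 16-9-15, which was also lowest without the 3 dominant rows, at 0.428%.

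Within each suffix the log2 difference of Malat1 (high minus low) was 1.13 in 16-9-15, −4.05 in 18-8-14 and 0.65 in 1-9-14. The direction in 18-8-14 was thus opposite to that in the other pairs. Among all 11324 tested genes, scarce ones included, 1177 had a lower difference in 18-8-14 than Malat1, and among the 1405 with a mean of at least 100 CPM there were 6. Both counts describe the difference that chose the genes. The 3 dominant rows, the no-feature reads (29.5% and 24.5% of tallied reads in 18-8-14 against 12.4% to 17.9% elsewhere), the number of genes detected and the melanocytic markers move with that pair, and their part in the Malat1 difference was not tested.

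Neat1 followed Malat1 in direction in each pair. Its counts were 2202, 172 and 2107 in HPC libraries of 16-9-15, 18-8-14 and 1-9-14, and 1491, 3669 and 585 in LPC libraries. In TMM-normalised CPM these are 358, 100.1 and 246, and 246, 1049 and 61.4. The groups overlapped, with the LPC library of 18-8-14 highest and that of 1-9-14 lowest. The log2 difference (high minus low) was 0.54 in 16-9-15, −3.39 in 18-8-14 and 1.998 in 1-9-14. On library totals the LPC share was 17.0-fold higher in 18-8-14, while the HPC share was 1.44-fold higher in 16-9-15 and 4.01-fold higher in 1-9-14. Among all tested genes, 15.1% were higher in the HPC library of 16-9-15 and 1-9-14 and lower in that of 18-8-14, as Malat1 and Neat1 were. The rule rests on the 18-8-14 difference, so nothing is read from that share.

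**Figure D1:**
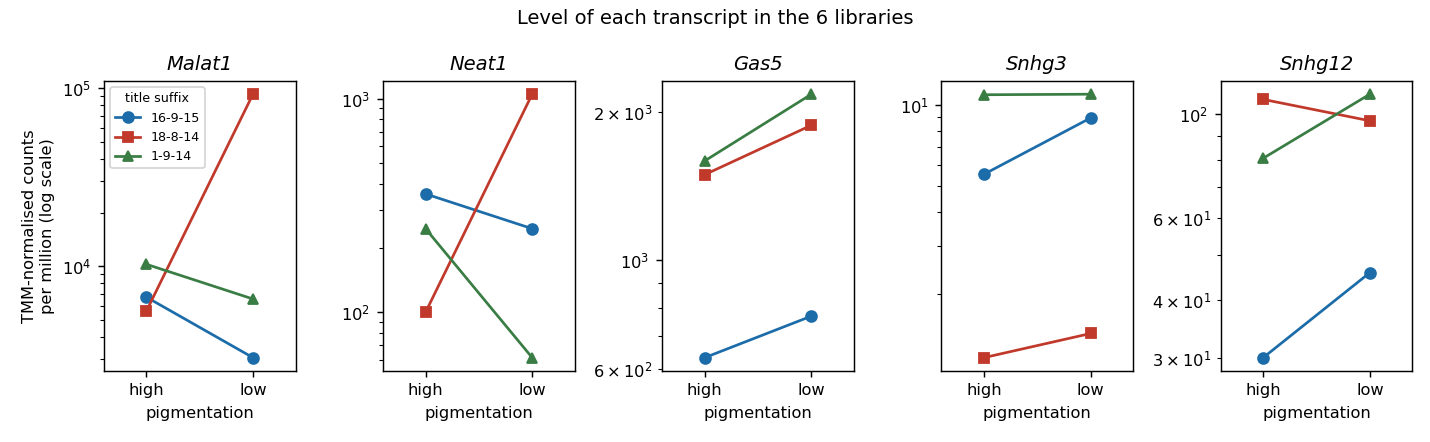
TMM-normalised CPM (log scale, a separate axis for each gene) in the HPC and LPC library of each suffix, joined by a line, with 1 point per library. Malat1 and Neat1 fall from high to low pigmentation in 16-9-15 and 1-9-14 and climb in 18-8-14 (Malat1 from 5591 to 92530), while Gas5 is higher in the LPC library of every suffix.

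The proportion of the 2 nuclear RNAs varied between libraries. Neat1 counts came to 5.34%, 1.79% and 2.40% of Malat1 counts in HPC libraries of 16-9-15, 18-8-14 and 1-9-14, and to 8.04%, 1.13% and 0.939% in LPC libraries. The 16-9-15 pair held the highest ratios in both populations. The ratio was higher in the LPC library of 16-9-15 and in the HPC library of the other suffixes. Because 1 library is divided by itself, this ratio does not depend on the scaling.

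Gas5 was lower in the HPC library of every suffix. Its counts were 3896, 2562 and 13602 in HPC libraries of 16-9-15, 18-8-14 and 1-9-14, and 4657, 6571 and 20683 in LPC libraries. In TMM-normalised CPM these are 634, 1491 and 1590, and 769.6, 1878 and 2171. The groups overlapped, with both 16-9-15 libraries lowest and the LPC library of 1-9-14 highest. The log2 differences (high minus low) were −0.28, −0.33 and −0.45, a narrow range beside that of Malat1.

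Snhg12, whose gene holds H/ACA snoRNAs and a C/D snoRNA, had 185, 185 and 689 counts in the HPC and 277, 339 and 1053 in the LPC libraries, in the same order of suffixes. In TMM-normalised CPM the HPC libraries stood at 30.1, 107.7 and 80.6 and the LPC ones at 45.8, 96.9 and 110.5. The groups overlapped, and both 16-9-15 libraries were again lowest. The log2 differences (high minus low) were −0.60 in 16-9-15, 0.15 in 18-8-14 and −0.45 in 1-9-14. On library totals the 18-8-14 difference was −0.55, so its direction depended on the scaling. The median of all tested genes in 18-8-14 was −0.20 under TMM.

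Snhg3, the host of the Snora73 genes, was scarce. It had 34, 2 and 93 counts in the HPC and 54, 5 and 104 in the LPC libraries. In TMM-normalised CPM these are 5.53, 1.16 and 10.9, and 8.92, 1.43 and 10.9. Both 18-8-14 libraries were lowest, at 2 and 5 counts. The log2 differences (high minus low) were −0.66, −0.23 and −0.01, and the depth of the 18-8-14 pair cannot show a difference of that size. Gas5 and Snhg3 were lower in the HPC library of all 3 suffixes under TMM, as were 17.2% of all tested genes. For Snhg3 this direction was not firm, because without the 3 dominant rows its share in 1-9-14 was 1.009-fold higher in the HPC library.

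**Figure D2:**
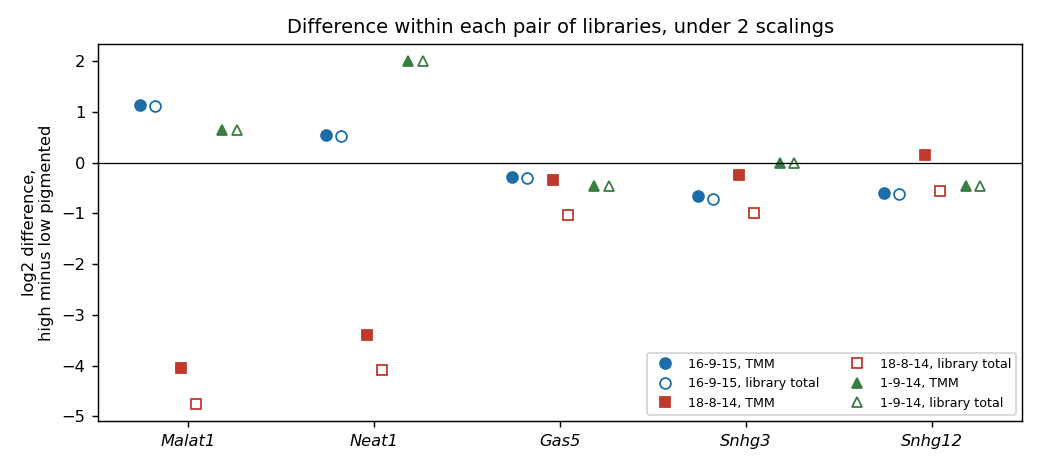
Log2 difference between the HPC and the LPC library of each suffix (vertical axis) for the 5 genes, with filled symbols for TMM-normalised and open symbols for library-total scaling, and 1 point per pair. The 18-8-14 points of Malat1 and Neat1 lie at −4.05 and −3.39 under TMM while their other points are above 0, and Snhg12 in 18-8-14 changes sign with the scaling.

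Gas5 and Snhg12 varied together over the libraries. Pearson's r of their log2 CPM was 0.96 over the 6 libraries, the highest of the 10 correlations among the 5 genes, and that of Malat1 and Neat1 was 0.71. These are descriptions over libraries that share suffix, depth and scaling. Snhg12 counts came to 4.75%, 7.22% and 5.07% of Gas5 counts in HPC libraries of 16-9-15, 18-8-14 and 1-9-14, and to 5.95%, 5.16% and 5.09% in LPC libraries. The HPC library of 18-8-14 had the highest ratio, and those of the other 5 libraries lay between 4.75% and 5.95%.

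**Figure D3:**
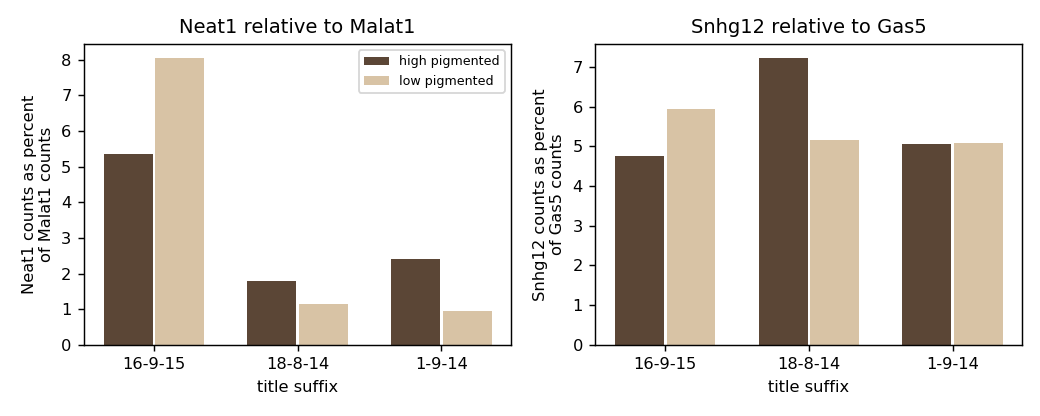
Neat1 counts as a percent of Malat1 counts (left) and Snhg12 counts as a percent of Gas5 counts (right) in each library, with dark bars for HPC and light bars for LPC, 1 library per bar. The left ratio ranges from 0.939% to 8.04% and the right one from 4.75% to 7.22%.

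The study compared HPC with LPC, and over all 6 libraries none of the 5 genes passed. Malat1 averaged 7516 CPM in HPC (SD 2434, n = 3) and 34050 CPM in LPC (SD 50680, n = 3), a spread set by its 18-8-14 library. Its log2 fold change (high minus low) of −2.18 ± 1.16 (SE) includes the difference that chose the genes and is given as a description. That of Neat1 was −0.94 ± 0.92, with means of 234.9 ± 129.5 and 452 ± 525 CPM (SD, n = 3 each). Gas5 had means of 1238 ± 526 and 1606 ± 739 CPM and a fold change of −0.38 ± 0.53. Snhg12 had −0.22 ± 0.56 and Snhg3 had −0.25 ± 1.11 on the log2 scale. The adjusted p was 0.9996 for each tested gene of the 5 in the quasi-likelihood test of edgeR, adjusted by Benjamini and Hochberg's method. None of the 5 genes separated the populations without overlap, against 5.74% of all tested genes, and 0% of the 11324 tested genes were called, where a call is an adjusted p under 0.05. Before adjustment 38 genes and none of the 5 had a p under 0.05, and DESeq2 and limma-voom also called 0. The common biological coefficient of variation was 71.6%. With the suffix as a replicate block the fold changes were −0.43 ± 1.26 (SE) for Malat1, −0.06 ± 1.24 for Neat1, −0.35 ± 0.12 for Gas5, −0.31 ± 0.25 for Snhg12 and −0.33 ± 0.72 for Snhg3. Their adjusted p-values in edgeR ran from 0.93 to 0.99. With limma-voom and no block the values were −0.77 for Malat1 and −0.17 for Neat1, so the size of both depended on the fit.

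Malat1 was higher in HPC in the 4 libraries of 16-9-15 and 1-9-14, which the rule did not use. Its 2 HPC libraries, at 6704 and 10250 CPM, lay above its 2 LPC ones, at 3064 and 6542. In a fit of these libraries with the suffix as a block, its log2 fold change was 0.88 ± 0.12 (SE; adjusted p = 0.000582, edgeR, quasi-likelihood test, Benjamini-Hochberg adjusted), and it was higher in 2 of 2 pairs. It was the single gene of the 5 that was called, where 1.30% of 11906 tested genes were called, 0.932% higher and 0.370% lower. Without the block its unadjusted p was 0.14 (edgeR) and no gene was called. The blocked fit has few libraries for its terms, so the SE and p of Malat1 rest largely on variation estimated across genes. The log2 differences of Malat1 (high minus low) were 1.13 in 16-9-15 and 0.65 in 1-9-14. The other 4 genes did not pass with the block. Neat1 had a log2 fold change of 1.25 ± 0.52 (adjusted p = 0.58), Gas5 −0.38 ± 0.12 (adjusted p = 0.13), Snhg12 −0.53 ± 0.18 (adjusted p = 0.17) and Snhg3 −0.33 ± 0.40 (adjusted p = 0.82). With limma-voom in place of edgeR, Neat1 (1.19, adjusted p = 3.81e-08) and Gas5 (−0.39, adjusted p = 0.0104) passed as well, while with DESeq2 their adjusted p-values were 0.35 and 0.082.

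The host genes Gas5 and Snhg12 and Malat1 also differed between suffixes. In the same 4 libraries, with pigmentation kept in the model, Gas5 was higher in 1-9-14 than in 16-9-15 by 1.41 ± 0.12 (SE) on the log2 scale (adjusted p = 1.12e-09, edgeR). Snhg12 was higher by 1.34 ± 0.18 (adjusted p = 3.18e-06, edgeR) and Malat1 by 0.85 ± 0.12 (adjusted p = 1.31e-05, edgeR). Snhg3 (0.62 ± 0.40) and Neat1 (−1.25 ± 0.52) did not pass. These 3 called of 5 stand beside 1402 of 11906 tested genes called higher in 1-9-14 (11.8%) and 1633 called lower. This comparison was chosen after the values were seen.

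Other snoRNA hosts were set beside Gas5 and Snhg12. Of 10 tested noncoding hosts, 8 had a log2 fold change below 0 over all 6 libraries, as had 5998 of all 11324 tested genes. The median of the 10 was −0.38 against −0.04 for all tested genes, and 0 were called. The most abundant was Zfas1 at 154, 664 and 362 CPM in HPC and 168, 912 and 574 in LPC libraries. Zfas1 was lower in the HPC library of each suffix, like Gas5. Snhg16 had the lowest fold change, −3.33 ± 1.48 (SE), with no count in the HPC library of 18-8-14, and Snhg11 had the highest, 1.07 ± 1.45. In the 4 libraries with the block 0 noncoding hosts were called, and their median was −0.12 against 0.0013 for all genes. Snhg16 stood at −1.03 ± 1.12 and Snhg11 at −0.05 ± 0.88 in that fit.

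Of 22 protein-coding snoRNA hosts, which include ribosomal protein and translation factor genes, 19 had a fold change below 0 over all 6 libraries. So had 5998 of all 11324 tested genes. The median of the 22 was −0.42. In 15 of the 22 the HPC library was the lower one for every suffix, as in 17.2% of all tested genes. None was called over the 6 libraries. Tpt1, a growth-linked abundant mRNA, had 0.03 ± 0.48, Taf1d the lowest value at −1.45 ± 0.73, and Eif4a2, a translation initiation helicase, the highest at 0.37 ± 0.45. Without the 18-8-14 pair, in the fit with the block, Tpt1, Taf1d and Eif4a2 stood at −0.13, 0.04 and 0.20. In the 4 libraries with the block 4 of the 22 were called, all lower in HPC, where 0.370% of all tested genes were called lower, and the median was −0.36 against 0.0013 for all genes. Nucleolin (Ncl), which acts in ribosomal RNA processing, fell by 0.64 on the log2 scale (adjusted p = 0.00403, edgeR). Rpsa, a protein of the small ribosomal subunit, fell by 0.54 (adjusted p = 0.0228, edgeR). The snoRNP proteins Nop58 and Dkc1 fell by 0.66 (adjusted p = 0.0375) and 0.71 (adjusted p = 0.036).

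The core snoRNP proteins bind snoRNAs and form the enzymes that they guide. Of 8 core snoRNP genes, 3 of which also stand among the coding hosts, 7 had a fold change below 0 over all 6 libraries and 6 were lower in every pair, as were 17.2% of all tested genes. The median of the 8 was −0.67, and 5998 of all 11324 tested genes had a fold change below 0. Nop58, a C/D snoRNP protein, was both the most abundant and the lowest, at −1.34 ± 0.54, and Nop10, an H/ACA protein, the highest at 0.12 ± 0.43. None was called there. In the 4 libraries Nop58, Dkc1, the pseudouridine synthase, and Gar1 passed, the last with a fall of 0.84 (adjusted p = 0.022, edgeR). Among all tested genes 0.370% were called lower in that fit. The table holds 33 snoRNA rows, whose counts summed to 14 and 97 in the HPC and LPC libraries of 18-8-14 and to 306 to 492 in the others. Of the rows whose snoRNA lies inside a gene described here, Snora16a (in Snhg12) had 0, 0 and 0 counts in HPC and 5, 0 and 3 in LPC libraries. Snora24 (in Snhg8) had 13, 0 and 0, and 6, 0 and 2. Mature snoRNAs lack a poly(A) tail, and 3′-end libraries are not made to measure them.

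Paraspeckle proteins bind Neat1, and speckle proteins share nuclear speckles with Malat1. Each of the 10 paraspeckle protein genes described had a log2 fold change below 0 over the 6 libraries, as had 5998 of all 11324 tested genes. The median of the 10 was −0.38, and 0 were called. Hnrnpk was the most abundant, at −0.28 ± 0.59 (SE), Sfpq the lowest at −1.04 ± 0.80 and Nudt21 the highest at −0.02 ± 0.57. In the 4 libraries with the block the median of these 10 was −0.31, and Sfpq fell by 0.57 (adjusted p = 0.0361, edgeR). In the same fit Malat1 was called higher and Neat1 was not called. Within suffixes the median difference of the 10 paraspeckle genes was −1.44 in 18-8-14, −0.49 in 16-9-15 and −0.21 in 1-9-14. Of 12 nuclear speckle genes, 11 had a fold change below 0 over the 6 libraries, with a median of −0.54 and 0 called in either fit. Srrm2, a scaffold of speckles, had −0.91 ± 0.63, Srsf11 the lowest value at −1.51 ± 0.70 and Srsf2 the highest at 0.41 ± 0.72.

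Decay and end-processing factors act on the ends and the turnover of such RNAs. Over the 6 libraries 5998 of all 11324 tested genes had a fold change below 0 and 5326 above 0. Of 10 nonsense-mediated decay genes, 7 had a fold change below 0 with a median of −0.31, and 0 were called in either fit. The values ran from −1.32 ± 0.73 for Smg1, the kinase of the pathway, to 1.03 ± 0.82 for Smg9, and that of the most abundant, Upf2, was −1.25 ± 0.78. Without 18-8-14 and with the block the median of the 10 was −0.09, and Smg1, Smg9 and Upf2 stood at −0.58, 0.32 and −0.18. Of 14 genes for RNase P, tRNA 3′-end cleavage and nuclear RNA decay, 10 had a fold change below 0 with a median of −0.35, and 0 were called. Zfc3h1 was lowest at −1.81 ± 0.92 and Pop1 highest at 0.77 ± 1.51, and the most abundant, Mtrex, had 0.10 ± 0.40. In the blocked fit without 18-8-14 the median of the 14 was −0.18, and Zfc3h1, Pop1 and Mtrex stood at −0.24, −0.21 and −0.21. Of 11 other long noncoding RNAs tested, 7 had a fold change above 0, with a median of 0.07. Pvt1 was highest at 2.03 ± 1.01 and Mir17hg lowest at −1.89 ± 1.26, and the most abundant, Oip5os1, had 0.20 ± 0.41. The blocked fit without 18-8-14 gave the 11 a median of −0.14, with Pvt1, Mir17hg and Oip5os1 at −0.17, −1.36 and 0.08. None was called in either fit.

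**Figure D4:**
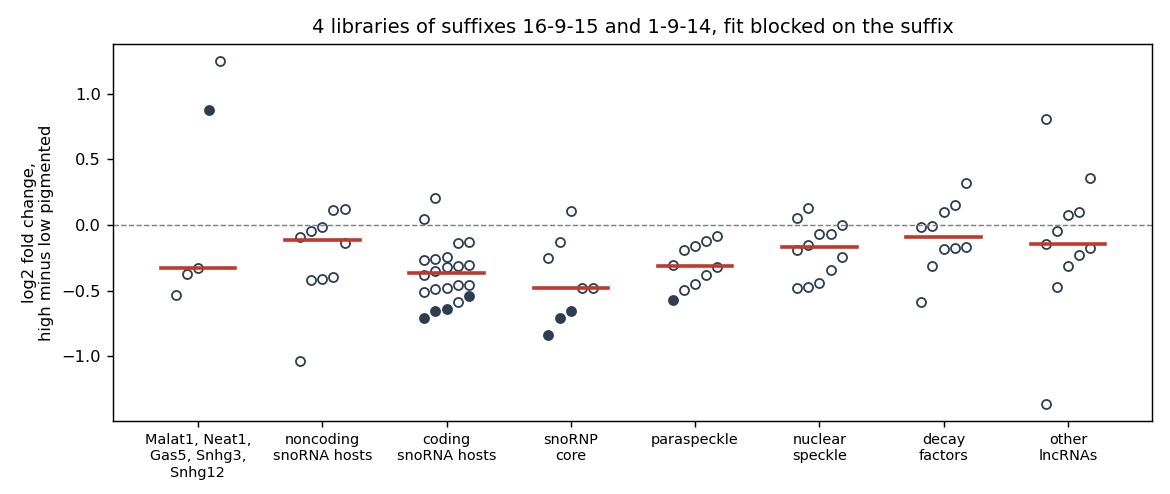
Log2 fold change (high minus low pigmented) of each gene in the fit of the 4 libraries of 16-9-15 and 1-9-14 with the suffix as a block, by gene list. Filled points have an adjusted p under 0.05, red bars are list medians and the dashed line is the median of all tested genes. Malat1 is the filled point at 0.88, and the filled points among coding hosts and snoRNP genes and that of Sfpq among paraspeckle genes lie below 0.

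The genes whose profiles were most like those of Malat1, Neat1 and Gas5 were sought among 7781 genes with a mean of at least 10 CPM, by Pearson's r of log2 CPM over the 6 libraries. For Malat1 they were Plec (0.99, the gene of the cytoskeletal linker plectin), Ppp1r7 (0.99) and Ppp1r9a (0.98). Plec stood at 31.4, 28.5 and 44.2 CPM in HPC and 25.8, 156.1 and 37.6 in LPC libraries, highest in the LPC library of 18-8-14. For Neat1 they were Agfg1 (0.97), Ept1 (0.97) and Smc5 (0.97). For Gas5 they were Gnb2l1 (0.99), which is Rack1, a protein of the small ribosomal subunit and itself a snoRNA host, followed by Rassf2 (0.99) and Fscn1 (0.99). Gnb2l1 stood at 946, 1488 and 1470 CPM in HPC and 1057, 1598 and 1866 in LPC libraries, with both 16-9-15 libraries lowest. Genes picked by correlation over the same 6 libraries share such highs and lows by that choice, so nothing is read from them.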

How the data were processed

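RNA from sorted B16-F10 cells was sequenced from transcript 3′ ends with the QuantSeq forward kit, per the labels' protocols. The authors deposited raw counts per gene, from HTSeq, as the table is named. STAR and GRCm38 are listed in the submitters' processing notes; the annotation, strand setting and versions are not given in the sources used here. No-feature and ambiguous tallies (12.4% to 29.5% and 0.487% to 2.51% of tallied reads) did not enter library sizes or tests. The table has no molecular identifiers.

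Genes were tested with edgeR 4.0.16 (quasi-likelihood, TMM, filterByExpr with a minimum count of 10) in R 4.3.3, with p-values adjusted by the Benjamini-Hochberg method over all tested genes. The SE given for edgeR is the absolute log2 fold change divided by the square root of the F statistic. Differences within a suffix were taken on log2 CPM (prior count 2). limma 3.58.1 (voom) and DESeq2 1.42.0, other scalings, no filter, the suffix as a replicate block and leaving out libraries were alternatives. Deviations from the group means were shared by libraries of 1 suffix (correlations across genes of 0.466, 0.316 and 0.422 in 16-9-15, 18-8-14 and 1-9-14). The suffix was therefore taken to pair them in the blocked fits and the within-suffix differences, while the main fit of the 6 libraries had no block. No 2 libraries agreed within sampling noise. The fits were tested on simulated data, where the fit of the 6 libraries missed most of the changes put in. A gene not called over the 6 libraries may therefore still differ.

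Named genes were the members, the 3 genes most like each of Malat1, Neat1 and Gas5, the most abundant, highest and lowest gene of each list, snoRNA rows inside members, and list genes called in the 4-library fit, the last chosen after their values were seen. The members and lists were chosen with earlier results of these data known. The tissue check also used fibroblast, keratinocyte, immune and endothelial markers, of which 3 of 4, 2 of 4, 1 of 4 and 1 of 3 had a row. Their summed levels were at most 33.2, 15.1, 1.79 and 11.6 CPM in any library. The fibroblast, keratinocyte and endothelial maxima were all in the HPC library of 18-8-14, where Pdgfra, Cdh1 and Pecam1 had 36, 26 and 20 counts. Of the paraspeckle list, 1 gene is not reported here.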

Additional observations from a re-analysis of the deposited data

How the results depend on the processing

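No gene was called under 14 alternatives, among them the replicate block, DESeq2, limma-voom, other scalings, no filter and each library left out; DESeq2 gave Malat1 a log2 fold change of −2.19 with no p-value. With both libraries of 18-8-14 left out and the replicate block, 155 genes and 1 of the 5 members were called by edgeR. The same fit called 354 genes and 3 members with limma-voom, 123 and 1 with DESeq2, and 102 and 1 on library totals; these last 3 settings were chosen after seeing the data.

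The direction of Malat1 and Neat1 turned with the 18-8-14 pair. Without it the log2 fold change of Malat1 was 0.81 with no block, 0.88 with the replicate block, 0.84 with voom, 0.89 with DESeq2 and 0.88 on library totals, and that of Neat1 was 0.96, 1.25, 1.19, 1.27 and 1.25. Leaving out 1 library at a time gave −2.70 to 0.64 for Malat1 and −1.45 to 0.61 for Neat1, above 0 without the low-pigmented library of 18-8-14. The range was −1.05 to 0.20 for Snhg3 and −0.60 to 0.15 for Snhg12. Gas5 stayed below 0 in all 18 alternatives, but ran from −0.71 (without the low-pigmented library of 16-9-15) to −0.07 (without the high-pigmented library of 16-9-15) and was −0.09 without the low-pigmented library of 1-9-14. Over the 6 libraries Malat1 was −0.43 with the replicate block and −0.77 with limma-voom, and Neat1 −0.06 and −0.17. The cause was not tested. Depth limits Snhg3, at 2 and 5 counts in 18-8-14.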
